A study of Mus musculus with 4 samples.

Results

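The genes described here are 39 genes of the striated muscle sarcomere, the contractile unit of skeletal and heart muscle, measured in mouse liver. They were chosen by name: every non-control probe whose gene name in the scanner files was one of the 39 was taken. The rule found 71 probes of 38 genes, out of 41174 probes on the array. Mybpc1, which encodes the slow myosin-binding protein C, was not found under its own name. A probe whose RefSeq accession belongs to Mybpc1 carries the older name 8030451F13Rik in the files. That probe was not well above background on any array, and it is not counted among the 71.

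The series asked how a Lactobacillus isolate from ostrich affects mice, and its arrays address the liver. Livers of 2 control mice and 2 mice of the group labelled LB1 were each hybridised to 1 whole-genome array of 60-base probes with 1 dye, Cy3. All 4 were female BALB/c mice, killed 20 days after inoculation, and no genetic alteration is named for either group. The labels give neither the animals' age, nor what LB1 stands for, nor what the control mice received, and the sample names of the LB1 mice read "stuff". Replicates are separate mice, so the spread between the arrays of a group comes from the animals and the measurement together.

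In a sarcomere, thick filaments of myosin pull on thin filaments of actin. Calcium, released inside the muscle fibre by the ryanodine receptor and pumped back by a calcium ATPase, binds troponin C and so moves tropomyosin off the actin. Titin spans the sarcomere from the Z-disc, and nebulin runs along the thin filament of skeletal muscle. Most of these proteins exist as paired isoforms of fast and slow skeletal fibres or of the atria and ventricles of the heart. Liver parenchyma holds no striated muscle. The smooth wall of large hepatic vessels uses other actin and myosin genes, and striated heart cells are known to extend into the wall of large veins near the heart.

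The probes behind the largest differences are given first because each value below is the brightness of 1 such stretch. Probes of the 38 genes shared no stretch of 20 or more bases with a probe of any other gene. Within a gene, 3 pairs overlapped, in Myh7, Myl4 and Smyd1, so the members of each pair are not independent measurements. Capitals mark the overlap of the Myh7 pair, which shared 55 bases, and of the Myl4 pair, which shared 47. For Myl7, Trim55 and Myh7 the first 30 bases are printed, and for Acta1 and Myl4 the whole probe.
Myl7 probe, chr11:5796640-5796699, minus strand: atgagaaagaggagtagacaggctgaggtc
Trim55 probe, chr3:19544483-19544542, plus strand: agagagagagacataaaggacacttgatca
Myh7 probe 1, chr14:55589531-55589590, minus strand: tcagaCCTGGAGCCTTTGCAACAGCCCTTT
Myh7 probe 2, chr14:55589526-55589585, minus strand: CCTGGAGCCTTTGCAACAGCCCTTTAGGTG
Acta1 probe, chr8:126416197-126416256, minus strand: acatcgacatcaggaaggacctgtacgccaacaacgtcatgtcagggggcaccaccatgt
Myl4 probe 1, chr11:104445435-104445805, plus strand: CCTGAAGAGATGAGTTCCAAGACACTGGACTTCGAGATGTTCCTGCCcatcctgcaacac
Myl4 probe 2, chr11:104445422-104445792, plus strand: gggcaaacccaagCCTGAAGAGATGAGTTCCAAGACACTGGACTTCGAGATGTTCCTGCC
Coordinates of probes are those of the files, on mm9, and the files do not say whether a probe lies in coding sequence or a UTR. Both Myl4 probes span more than 60 bases of the genome, which means that they cross a splice junction.

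Several genes of this set are textbook targets of the serum response factor, which binds the CArG box. A match to the CArG box, on either strand, lay within 250 bases before the start of 5 of 30 member genes with a RefSeq promoter (GRCm38.p6): Acta1, Actc1, Myh4, Myl3 and Myl7. Over all 32851 promoters the share with a match was 1.47%. The MEF2 site matched in 1 member gene, Ttn, against 0.508% of all promoters. The E-box CANNTG matched in 24 of the 30, against 66.2% of all promoters, and TATAAA in 8, against 12.4%. The 120 bases before the start of the 4 genes with a CArG match and a tested probe are printed, with the CArG box, and in Acta1 also TATAAA, in capitals.
Myl7, chr11:5898783-5898902, minus strand: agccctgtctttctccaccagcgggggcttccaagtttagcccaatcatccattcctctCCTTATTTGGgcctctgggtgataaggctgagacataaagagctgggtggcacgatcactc
Acta1, chr8:123894776-123894895, minus strand: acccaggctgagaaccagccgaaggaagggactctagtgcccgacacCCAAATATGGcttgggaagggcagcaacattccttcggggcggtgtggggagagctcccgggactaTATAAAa
Myl3, chr9:110763558-110763677, plus strand: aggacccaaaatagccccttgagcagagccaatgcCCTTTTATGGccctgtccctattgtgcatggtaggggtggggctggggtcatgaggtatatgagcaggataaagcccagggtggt
Actc1, chr2:114052876-114052995, minus strand: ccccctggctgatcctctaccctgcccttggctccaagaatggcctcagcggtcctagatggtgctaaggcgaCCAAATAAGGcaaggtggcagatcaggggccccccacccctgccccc
Of these 4 genes Myl7, Acta1 and Myl3 were called higher in LB1 livers and Actc1 was not called. Beside them, 15 of the 26 tested member probes and 19.2% of all tested probes were called higher. The Acta1 probe was above background on the LB1 arrays only, and Myl3 was not called without scaling between arrays. The arrays do not measure what binds there. A match is a description of the letters and not a site.

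The LB1 arrays were dimmer than the control arrays. Processed signals are the scanner software's background-corrected brightness, and their 75th percentile stood at 411 and 415 for control mice 1 and 2 and at 147 and 80.8 for LB1 mice 1 and 2. For each probe the scaled value below is the log2 of its processed signal minus that percentile, and the test took in each probe that the software called well above background on both control arrays or on both LB1 arrays. A difference is LB1 minus control on this log2 scale, with its standard error (SE) from limma, and a call is a Benjamini-Hochberg adjusted p under 0.05 over all 22969 tested probes. The median difference of all tested probes was 0.16 when scaled and -1.76 without any scaling. Probes that were above background on no array (15174 probes) had a median difference of -0.05 without scaling and of 1.88 when scaled. Of 12 hepatocyte markers, 11 had a probe, and all 11 were above background on all 4 arrays.

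Most of the sarcomere genes were dim in these livers. Of the 38 genes, 22 and 19 had a probe well above background on control arrays 1 and 2, and 24 and 18 on LB1 arrays 1 and 2. The lowest processed signal of any probe called well above background was 10.1, 9.80, 11.8 and 7.98 on the 4 arrays in the same order. In bulk liver RNA, fewer cells of a type and less RNA per cell cannot be told apart. On none of the 4 arrays was a probe of 12 genes above background: the fast myosins Myh2 and Myh4, the cardiac alpha myosin Myh6, the light chains Myl1 and Myl2, the fast myosin-binding protein Mybpc2, the Z-disc proteins Actn2, Actn3 and Myot, the muscle creatine kinase Ckm, myoglobin (Mb) and the muscle glycogen phosphorylase Pygm. Their 18 probes had processed signals of 1.75 to 16.4. Ckm, among the most abundant transcripts of skeletal and heart muscle, stood at 4.74 and 2.52 on the control arrays and 6.57 and 2.00 on the LB1 arrays.

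**Figure D1:**
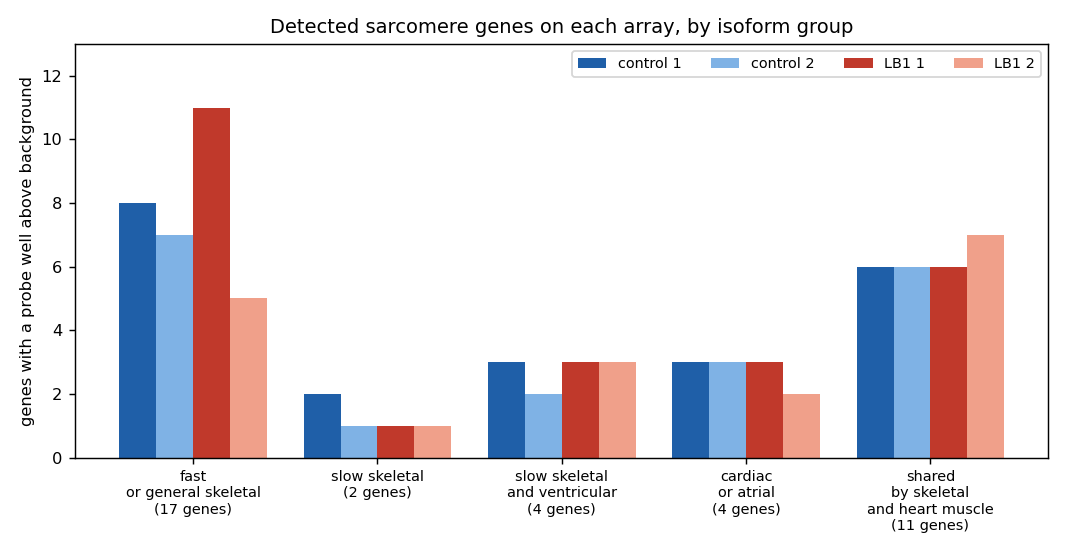
Number of sarcomere genes with at least 1 probe well above background on each of the 4 arrays (bars, from 0), by isoform group, with the genes that have a probe in brackets. Fast or general skeletal genes numbered 8 and 7 on the control arrays and 11 and 5 on the LB1 arrays, so detection did not separate the groups.

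Of the 71 probes, 26 probes of 21 genes were tested. LB1 livers were higher at 15 of these probes and lower at 0, with 11 not called, by limma with Benjamini-Hochberg adjustment; without scaling, 4 were higher and 7 lower. Among all tested probes 19.2% were called higher and 13.2% lower, and without scaling 137 were higher and 15170 lower. Scaled to the array median, 12 member probes were higher and 2 lower (1654 and 7125 of all probes), and quantile normalization gave 11 and 1 (2515 and 3983). The main setting called 4407 probes higher and 3030 lower. With normexp 22 member probes were higher and 0 lower (11347 and 4643 of all probes), and with the series values 21 and 0 (10689 and 3758). Both settings added Actc1, Atp2a1, Mylpf, Ttn, the second Neb probe and at least 1 probe of Myl4. The calls rest on both control arrays: without control replicate 1 the count of member probes called higher was 4, and without control replicate 2 it was 0, when 139 and 1 of all probes were called.

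A member that entered the test through 1 group alone can lean towards that group by this choice. Acta1, Myh7 and Tcap were well above background on both arrays of the LB1 group only, and Actc1, Atp2a1, Myh1 and Ryr1 of the control group only. The other 14 genes had 18 probes above background on all 4 arrays. Of these 18 probes 10 were higher, 0 lower and 8 not called, against 21.5% higher and 12.1% lower among all 18145 such probes. By gene, using the brightest probe, 9 of the 14 were higher, and the median difference of the 14 was 1.60, against 0.24 for all probes above background on all 4 arrays.

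Dim probes leaned towards LB1 over the whole array, and many members are dim. Among probes above background on all 4 arrays, 44.7% of those with a geometric mean processed signal under 50 were called higher, with a median difference of 0.99, and 4 of the 6 member probes in that range were. From 50 to 100 the share was 19.8%, and 3 of 6 member probes were higher. From 100 to 400 it was 14.3%, and 3 of 4 member probes were: Myl7, Trim55 and Myl3, but not Tnnt1. At 400 or more it was 19.5%, and neither of the 2 member probes, both of Smyd1, was called. These ranges were chosen after the data had been seen.

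**Figure D2:**
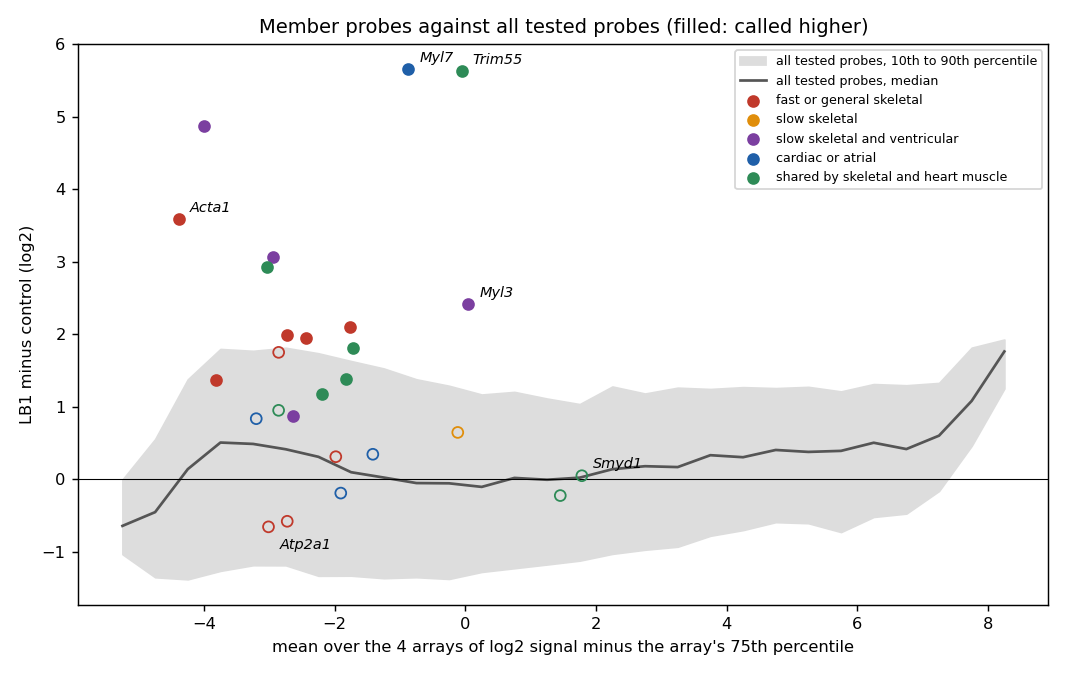
Difference of each tested member probe (LB1 minus control, log2) against its mean scaled log2 value over the 4 arrays, coloured by isoform group; filled points were called higher and open points were not called. The grey band spans the 10th to 90th percentile of all tested probes at each level and the line is their median. Myl7 (5.65) and Trim55 (5.62) lie farthest above the band, while Smyd1 (0.05) lies on the median line; without scaling Smyd1 was lower.

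Among the 13 thick filament genes 8 probes of 6 genes were tested. Of these, 5 were higher and 3 were not called, beside the 19.2% of all tested probes called higher. Myl7, the regulatory light chain of atrial myosin, had the largest difference. It read 82.6 and 12.2 (processed signal) on control arrays 1 and 2 and 327 and 543 on LB1 arrays 1 and 2. Both LB1 arrays were brighter than both control arrays, also before scaling, and the 2 control arrays differed from each other by more than the 2 LB1 arrays did. Scaled, the control mean was -3.70 ± 1.96 and the LB1 mean 1.95 ± 1.13 (SD, n = 2), a difference of 5.65 with an SE of 1.03 (limma, adjusted p = 0.0245). Within slide 1 the difference was 3.47 and within slide 2 it was 7.83, and without scaling it was 3.73. Without LB1 replicate 2 the call was lost.

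Myl4, the essential light chain of atrial myosin and the partner of Myl7 in the atria, did not share this. Its brighter probe read 121 and 156 on the control arrays and 58.7 and 36.1 on the LB1 arrays, a scaled difference of 0.35 (SE 0.24, limma, adjusted p = 0.296). The second, overlapping probe gave -0.19 (adjusted p = 0.547), and without scaling both were lower and past the test (-1.57 and -2.11). Myh6, the alpha myosin heavy chain of the adult mouse heart, was above background on no array. The log2 ratio of Myl7 to Myl4 within an array does not depend on any scaling. It was -0.55 and -3.67 on the control arrays and 2.48 and 3.91 on the LB1 arrays, a difference of 5.30. The groups did not overlap, but with 2 arrays each an exact two-sided permutation test over 6 assignments cannot go below p = 0.333, which is what it gave. This is 1 of 5 such ratios, chosen after the data had been seen, and the exact p was 0.333 for each.

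Myh7, the heavy chain of slow skeletal and ventricular muscle, was measured by the overlapping pair printed above. Probe 1 read 22.2 and 15.4 on the control arrays and 29.2 and 57.1 on the LB1 arrays, with a scaled difference of 3.07 (SE 0.64, limma, adjusted p = 0.0286). Probe 2 was above background on neither control array and read 29.2 and 45.7 on the LB1 arrays. Its scaled LB1 mean was 13.9-fold above the lowest signal called well above background on the control arrays (measured difference 4.87, limma, adjusted p = 0.0233). Without scaling it was 3.67-fold above that signal. The unscaled comparisons of this kind for Myh7 and Acta1 and the counts of genes by array order were chosen after the data had been seen. Such a comparison sets the LB1 mean against, on each control array, the higher of the probe's own signal and the lowest signal called well above background. It is not a minimum, because a probe can exceed that lowest signal without being called. Probe 1 did so on control array 2, at 15.4. Without scaling probe 2 stayed past the test (2.94) and probe 1 did not (1.15).

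Myl3, the essential light chain of slow skeletal and ventricular muscle, read 295 and 115 on the control arrays and 365 and 186 on the LB1 arrays. Before scaling the groups overlapped. Scaled, its control mean was -1.16 ± 0.97 and its LB1 mean 1.26 ± 0.08 (SD, n = 2), a difference of 2.42 (SE 0.48, limma, adjusted p = 0.0270), and the unscaled difference was 0.50. The call was lost when either LB1 array was left out. The second Myl3 probe was above background on no array and was not tested. It read 12.8 and 5.21 on the control arrays and 7.36 and 2.36 on the LB1 arrays. Myl2, the regulatory light chain of slow skeletal and ventricular muscle, was above background on no array.

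Of the fast thick filament genes only Mylpf and Myh1 were tested. Mylpf, the fast regulatory light chain, read 96.9 and 90.4 on the control arrays and 46.5 and 20.3 on the LB1 arrays. Its scaled difference was 0.31 (SE 0.23, limma, adjusted p = 0.329), and without scaling it was lower past the test (-1.61). Myh1, a fast myosin heavy chain, read 20.0 and 16.6 against 20.8 and 7.50, where the last value was not above background. It was called higher when scaled (1.38, adjusted p = 0.0301) but its unscaled difference was -0.55. The other Myh1 probes were above background on no array. The essential light chain Myl1, which pairs with Mylpf in fast fibres, was above background on no array either.

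**Figure D3:**
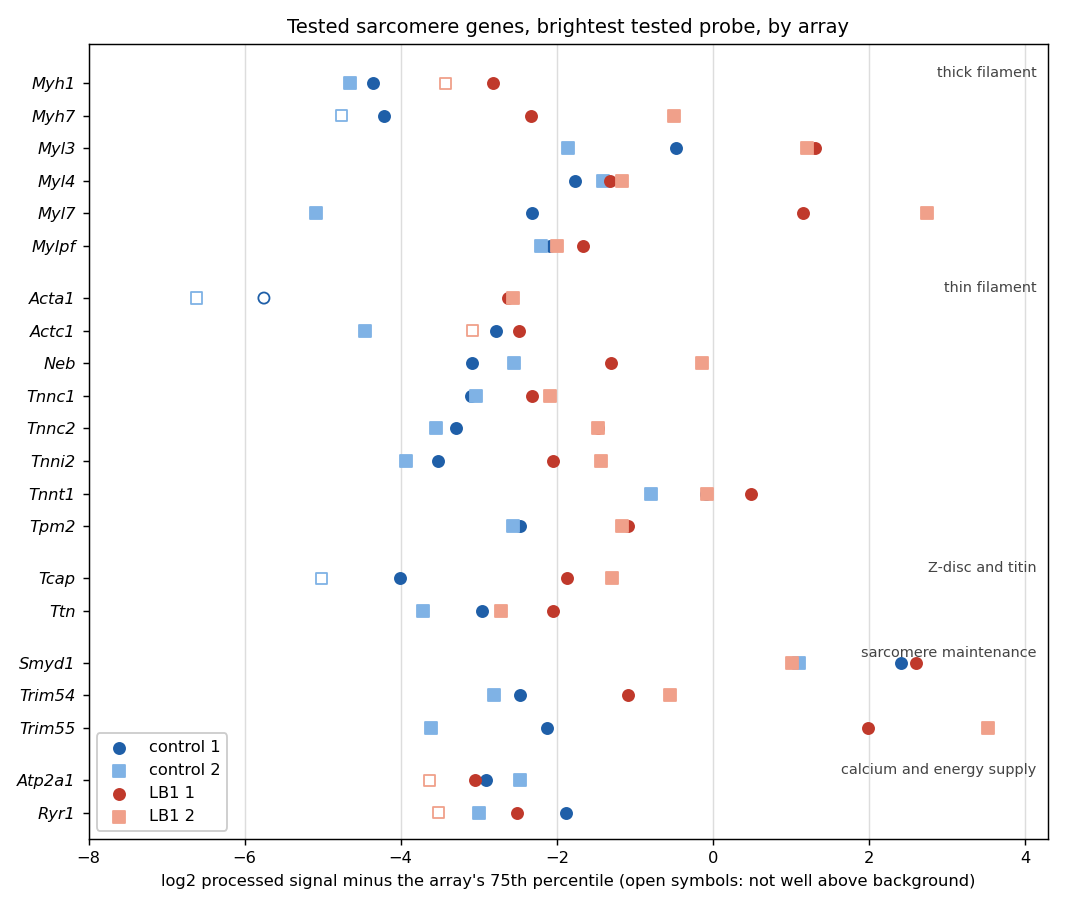
Scaled log2 value (log2 processed signal minus the array's 75th percentile) of the brightest probe of each of the 21 tested sarcomere genes on the 4 arrays, grouped by role; circles are replicate 1 and squares replicate 2, and open symbols were not well above background. Myl7, Trim55 and Acta1 show the widest gaps between control (blue) and LB1 (red) arrays, and Smyd1 splits by replicate number instead.

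Of the 10 thin filament genes, 10 probes of 8 genes were tested. When scaled, 7 were higher and 3 not called, beside the 19.2% of all tested probes called higher. Of the 7, only the Acta1 probe was also called higher without scaling. Acta1, the actin of skeletal muscle, was above background only on the LB1 arrays, at 23.9 and 13.6, where the control arrays read 7.62 and 4.24. Its scaled LB1 mean was 6.86-fold above the lowest signal called well above background on the control arrays (measured difference 3.59, limma, adjusted p = 0.0201). Without scaling it was 1.81-fold above that signal, and neither value is a minimum for this probe. Both LB1 arrays were brighter than both controls before scaling too, with an unscaled difference of 1.67 past the test. Actc1, the actin of heart muscle, read 59.8 and 18.8 on the control arrays and 26.3 and 9.52 on the LB1 arrays, so the groups overlapped. Its scaled difference was 0.84 (SE 0.60, adjusted p = 0.312).

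Among troponin genes, Tnnc2 and Tnni2 were called higher when scaled while their signals were nearly equal between groups. Tnnc2, the fast troponin C, read 42.1 and 35.4 on the control arrays and 53.1 and 29.2 on the LB1 arrays. Its scaled control mean was -3.42 ± 0.18 and its LB1 mean -1.47 ± 0.0011 (SD, n = 2), a difference of 1.95 (SE 0.22, limma, adjusted p = 0.0201), and the unscaled difference was 0.03. Tnni2, the fast inhibitory subunit, read 35.8 and 27.1 against 35.5 and 29.8. The signals of both genes overlapped between groups before scaling, and the scaled difference of Tnni2 was 1.99 (SE 0.31, adjusted p = 0.0220), against 0.06 unscaled. Tnnc1, the troponin C of slow and heart muscle, read 47.8 and 50.4 against 29.4 and 19.1. It was called higher when scaled (0.87, SE 0.22, limma, adjusted p = 0.0403), had an unscaled difference of -1.05, and lost the call with the slide as a block (adjusted p = 0.0555).

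The log2 ratio of Tnnc2 to Tnnc1 within an array, of which only the change between groups can be read, was -0.18 and -0.51 on the control arrays and 0.85 and 0.61 on the LB1 arrays, a difference of 1.08 with no overlap. Tnnt1, the slow troponin T, was brighter than most members, at 386 and 239 on the control arrays and 205 and 77.0 on the LB1 arrays. All its LB1 signals lay under the controls before scaling, and the scaled difference of 0.65 (SE 0.35, limma, adjusted p = 0.198) was not called. Tnni1, the slow inhibitory subunit, was above background on control array 1 alone, at 17.8, and Tnnt3, the fast troponin T, on LB1 array 1 alone, at 14.4. Neither was tested.

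Tpm2, the beta tropomyosin, had 2 probes. The brighter read 73.9 and 70.5 on the control arrays and 69.1 and 36.1 on the LB1 arrays, with a scaled difference of 1.39 (SE 0.21, limma, adjusted p = 0.0216) and an unscaled one of -0.53. The other gave 1.18 (adjusted p = 0.0281) and, without scaling, -0.74. Neb, nebulin, had 6 probes, of which 2 were tested. The brighter read 48.4 and 70.7 against 59.5 and 73.6, overlapping before scaling, with a scaled difference of 2.10 (SE 0.46, limma, adjusted p = 0.0305). The other gave 1.75 (adjusted p = 0.0524), which passed with the slide as a block (adjusted p = 0.0308) and under other alternatives. Unscaled differences of the Neb probes were 0.18 and -0.17.

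Z-disc and titin genes were the least detected of the structural groups, with 2 of 6 genes tested. Tcap, telethonin, which caps titin at the Z-disc, read 25.4 and 12.9 on the control arrays and 40.3 and 33.1 on the LB1 arrays. Both LB1 signals lay above both control signals. Only 1 of the 2 control values was above background, the scaled difference was 2.93 (SE 0.42, limma, adjusted p = 0.0213), and the unscaled difference of 1.01 did not pass the test. Ttn, titin, had 9 probes and only 1 was tested, at 53.0 and 31.6 against 35.4 and 12.3. Its groups overlapped before scaling, its unscaled difference was -0.97, and its scaled difference of 0.95 (SE 0.38, adjusted p = 0.108) was not called. It passed with the slide as a block (limma, adjusted p = 0.0463), with normexp background correction (1.25) and with the deposited series values (1.17). Myoz1, a fast-fibre calcineurin-binding protein of the Z-disc, was above background only on replicate 1 arrays, with 1 probe on the control array (16.7) and another on the LB1 array (17.7).

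The sarcomere maintenance genes comprise Smyd1, a methyltransferase that helps myosin assemble, and the ubiquitin ligases Trim54, Trim55 and Trim63 (also called MURF3, MURF2 and MURF1). Trim55 read 94.3 and 33.9 on the control arrays and 581 and 932 on the LB1 arrays. Both LB1 arrays were brighter than both control arrays before and after scaling. Scaled, the control mean was -2.87 ± 1.05 and the LB1 mean 2.76 ± 1.09 (SD, n = 2), a difference of 5.62 (SE 0.71, limma, adjusted p = 0.0211). It was 4.11 within slide 1 and 7.14 within slide 2, and 3.70 without scaling. Trim54 read 74.3 and 59.6 against 69.1 and 55.4, nearly equal before scaling (-0.10) and called higher after it (1.82, SE 0.29, adjusted p = 0.0221). The log2 ratio of Trim55 to Trim54 was 0.34 and -0.81 on the control arrays and 3.07 and 4.07 on the LB1 arrays, a difference of 3.81 with no overlap between groups.

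Trim63, the ligase known for muscle atrophy, had a probe that split by replicate number. That probe was above background only on the replicate 2 arrays, at 40.7 in the control and 29.6 in the LB1 mouse. The other Trim63 probe was above background on no array, at 2.63 and 2.70 on the control arrays and 3.14 and 2.08 on the LB1 arrays. Smyd1 was the brightest member. It read 2184 and 891 on the control arrays and 896 and 163 on the LB1 arrays, with a scaled difference of 0.05 (SE 0.69, limma, adjusted p = 0.958). Its overlapping second probe gave -0.22 (adjusted p = 0.819), and without scaling both were lower past the test (-1.87 and -2.14). In each group the replicate 1 array was the brighter. On GRCm38.p6, Smyd1 lies next to Fabp1, the liver fatty acid-binding protein gene, whose probe was saturated on all 4 arrays. Any link between their signals was not tested.

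In the main setting no gene of calcium handling or energy supply passed the test, and 2 of the 6 were tested. Atp2a1, the fast calcium pump, read 54.7 and 74.9 on the control arrays and 17.7 and 6.52 on the LB1 arrays, where only the first was above background. Both LB1 signals lay under both control signals. The scaled difference was -0.65 (SE 0.31, limma, adjusted p = 0.155), and it was lower past the test with the array median (-1.29), quantile normalization (-1.16) and no scaling (-2.57), but higher with normexp background correction (0.88) and with the deposited series values (0.54). Ryr1, the ryanodine receptor of skeletal muscle, read 111 and 52.2 against 25.7 and 7.05. Its scaled difference was -0.58 (SE 0.52, adjusted p = 0.411), and it was called lower with the array median (-1.21) and without scaling (-2.50). The second Atp2a1 probe (signals of 1.80 to 3.31) and the other Ryr1 probes (2.08 to 10.1) were above background on no array. Pvalb, the calcium buffer parvalbumin, was above background on LB1 array 1 alone (14.0).

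**Figure D4:**
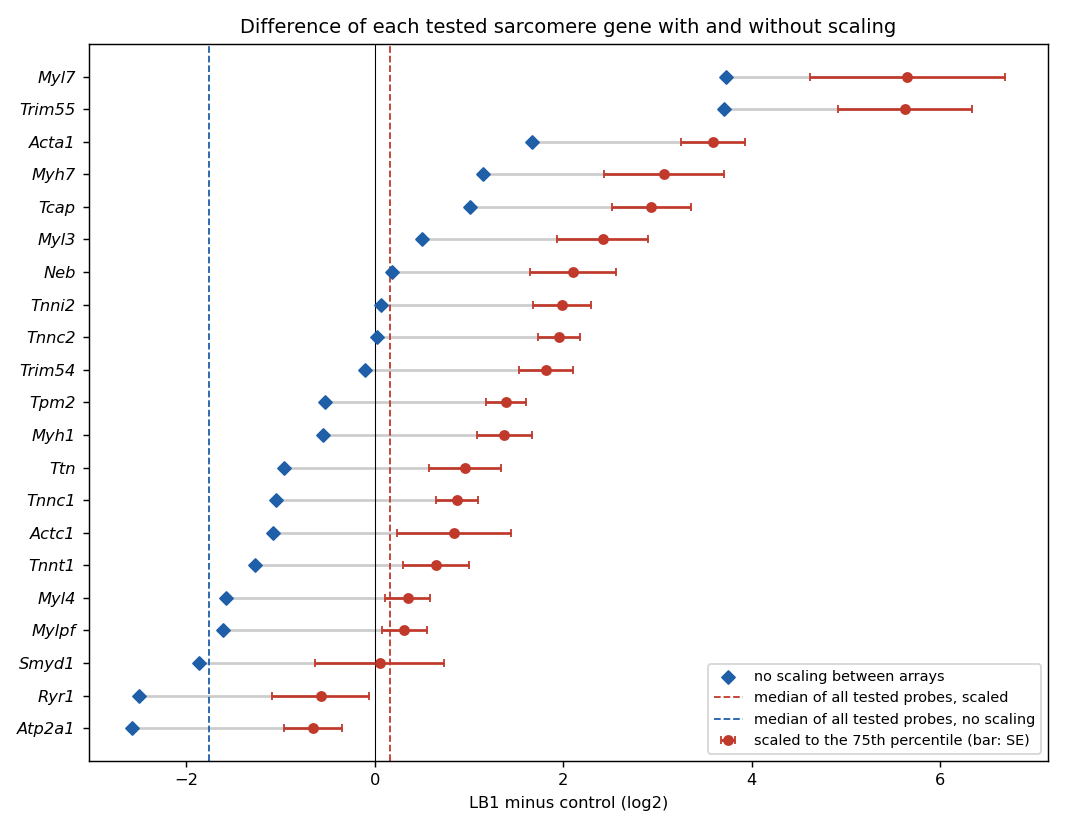
Difference (LB1 minus control, log2) of the brightest probe of each of the 21 tested sarcomere genes with scaling to the array's 75th percentile (red circles, bars are SE) and with no scaling between arrays (blue diamonds); dashed lines are the medians of all tested probes, 0.16 and -1.76. Myl7, Trim55 and Acta1 lie above 0 and pass the test in both, Myh7, Tcap and Myl3 lie above 0 in both but do not pass without scaling (probe 1 of Myh7 is shown), Neb, Tnni2 and Tnnc2 lie near 0 without scaling, and the genes from Trim54 downward lie under 0 without scaling.

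Differences relative to the median of all tested probes do not depend on which constant scales an array. On that footing the difference was 5.49 for Myl7, 5.46 for Trim55, 2.26 for Myl3, 1.82 for Tnni2 and 1.79 for Tnnc2. Acta1 gave 3.43, from control signals that were not above background. Tnni2 and Tnnc2 had mean signals under 50, where probes above background on all 4 arrays had a median scaled difference of 0.99. The 4 probes called higher in the main setting, with the array median, with quantile normalization and without scaling were those of Myl7, Trim55 and Acta1 and probe 2 of Myh7. A further 5, of Myl3, Tcap, Tnnc2, Tnni2 and Trim54, were called higher in the first 3 of those settings. The probes of Acta1 and Tcap and probe 2 of Myh7 entered the test through the LB1 group only.

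Calls by isoform group are small counts, beside the 19.2% of all tested probes called higher. Of 17 fast or general skeletal genes 8 were tested through 9 probes, with 5 higher and 4 not called; of the 5, Myh1 was below 0 without scaling. Of the 4 cardiac or atrial genes 3 were tested through 4 probes, with 1 higher (Myl7) and 3 not called. All 4 tested probes of slow skeletal and ventricular genes (Myh7, Myl3 and Tnnc1) were higher, although the unscaled difference of Tnnc1 was below 0. Of these 4, the 2 Myh7 probes overlap and entered the test only through the LB1 group. In the other groups Acta1 and Tcap also entered only that way, and Myh1 only through the control group. The 1 probe of a slow skeletal gene (Tnnt1) was not called. Of the genes shared by skeletal and heart muscle, 5 of 8 probes were higher, though without scaling the Tpm2 and Trim54 differences among them were below 0. Among genes above background on all 4 arrays the median scaled difference was 1.97 for 4 fast or general skeletal genes, 3.00 for 2 cardiac or atrial genes, 1.65 for 2 slow skeletal and ventricular genes and 1.39 for 5 shared genes. Without scaling these medians were 0.05, 1.08, -0.28 and -0.53 in the same order, and with the array median 1.33, 2.36, 1.01 and 0.76. The 2 cardiac or atrial genes were Myl7 and Myl4, which stood far apart.

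Other genes of striated muscle were read the same way, against the 19.2% of all tested probes called higher and the 44.7% among dim probes above background on all 4 arrays. Of 26 other sarcomere and Z-disc genes 17 were tested, with 7 higher, 1 lower and 9 not called. Mypn, a Z-disc protein, was above background only on the LB1 arrays, at 26.7 and 21.4, and was called higher (limma, adjusted p = 0.0201). Xirp1 and Myom3 were called higher when scaled (1.38 and 1.71), and their unscaled differences were -0.54 and -0.21. Tpm1, an alpha tropomyosin that many cell types make, was the 1 gene called lower (-1.28 scaled, -3.20 unscaled). Of 22 heart muscle genes 11 were tested, with 4 higher and 7 not called. Fabp3, a fatty acid carrier of heart and other tissues, rose by 2.46 when scaled, with an unscaled difference of 0.54 and overlapping signals, and Nkx2-5, Mybpc3 and Gja1 were called higher when scaled but had unscaled differences below 0 (-0.62, -0.43 and -0.92). Nkx2-5 and Gja1 were above background on the control arrays only. The cardiac troponins were at or near background: Tnni3 was above it on LB1 array 1 alone, at 25.0, and Tnnt2 on no array.

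Of 36 skeletal muscle genes outside the sarcomere 13 were tested, with 6 higher, 0 lower and 7 not called. Among all tested probes 19.2% were called higher and 13.2% lower. Cox6a2, a muscle subunit of cytochrome oxidase, rose by 2.05 and Mef2c, a transcription factor also made outside muscle, by 2.12, and their unscaled differences were 0.13 and 0.19. Fhl1 and Hspb7 were called higher when scaled (0.95 and 1.08), with unscaled differences of -0.97 and -0.84. The myogenic regulators Myod1, Myog and Myf5 were above background on no array. Smooth muscle genes numbered 8 tested of 12, with 2 higher, beside the same 19.2%. These were Synpo2 by 1.34 when scaled (-0.59 unscaled) and Tagln by 2.39 (0.47 unscaled, with overlapping signals). Acta2, the smooth muscle actin, was not called (-0.55, limma, adjusted p = 0.126), but it was lower past the test with the array median (-1.19), no scaling (-2.47), normexp (-0.66) and the series values (-0.61).

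Markers of other cell types that lie on or beside the liver moved as well. Of 21 mesothelial genes, which mark the cell layer covering abdominal organs, 15 were tested, with a median difference of 4.23. Of these, 12 were higher, 0 lower and 3 not called, beside the 19.2% of all tested probes called higher. Only 7 of the 15 were above background on all 4 arrays, with 6 higher, 0 lower and a median difference of 2.01. Of all probes above background on all 4 arrays 21.5% were called higher. The other tested mesothelial genes can lean towards the group through which they entered the test. Above background were 13 and 8 of the 21 on the control arrays and 15 and 17 on the LB1 arrays, and their processed signals summed to 4128 and 4316 for control mice and 3897 and 5367 for LB1 mice. Prg4, the brightest of them on the control arrays, read 2414 and 3421 there and 837 and 328 on the LB1 arrays. The mean scaled log2 value of the 15 tested genes was -2.55 and -4.24 on the control arrays and -0.27 and 0.88 on the LB1 arrays. Msln, mesothelin, read 222 and 23.0 on the control arrays and 922 and 1669 on the LB1 arrays. The order of the 4 arrays was the same for Myl7, Trim55, Msln and that mean: control 2 lowest, then control 1, LB1 1 and LB1 2. That order is not particular to them. An unchanged signal takes it through the scaling, because the 75th percentile was 415, 411, 147 and 80.8 on the arrays in that order. Before scaling, the signals of Myl7, Trim55 and Msln took it too, and those of Trim54 did not. Scaled, the order held for 7 of the 21 tested member genes (Acta1, Myh7, Myl7, Tcap, Tnni2, Trim54 and Trim55) and for 15.0% of all tested probes. It also held for the means of the other sarcomere list and of the skeletal muscle list outside the sarcomere. The part of mesothelial cells in the Myl7 and Trim55 differences was not tested.

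**Figure D5:**
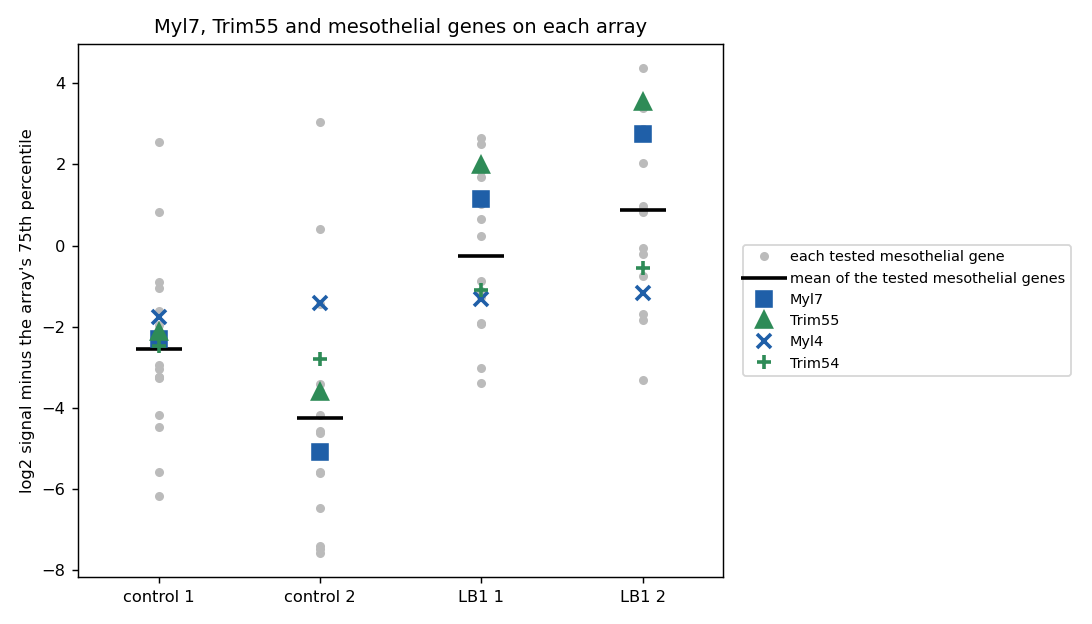
Scaled log2 value on each array of Myl7, Trim55, their counterparts Myl4 and Trim54, and the 15 tested mesothelial genes (grey points; black bars are their mean, -2.55, -4.24, -0.27 and 0.88). Myl7, Trim55 and Trim54 take the same order over the 4 arrays as the mesothelial mean, over a wider range for Myl7 and Trim55. An unchanged signal takes that order through the scaling, and the unscaled signals of Trim54 do not take it. Myl4 stays between -1.77 and -1.16. Of the 15 mesothelial genes only 7 were above background on all 4 arrays, and the others can lean towards the group through which they entered the test.

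Exocrine pancreas and adipocyte markers were counted the same way, beside the 19.2% of all tested probes called higher and the 13.2% called lower. Of 15 pancreatic genes 6 were tested, with 2 higher (Clps and Cel, of which Cel was below 0 without scaling), 1 lower (Amy2a5, by -2.48) and 3 not called, and their summed signal was 2960 and 2521 on the control arrays and 464 and 185 on the LB1 arrays. Of 11 adipocyte genes 5 were tested, and 1, Lipe, was called higher when scaled (0.92) with an unscaled difference below 0. Their summed signal was 4302 and 4562 on the control arrays and 1622 and 859 on the LB1 arrays. Of the 11 tested hepatocyte genes 5 were higher when scaled, 1 lower and 5 not called, beside the 19.2% of all tested probes called higher. Their summed signal, without scaling, was 557355 and 570635 on the control arrays and 423649 and 315347 on the LB1 arrays.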

How the data were processed

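Per the file headers, the deposited intensity values are processed signals of Agilent Feature Extraction 10.5.1.1, background-subtracted and detrended within each array, with nothing done between arrays. The deposited series table holds the unscaled mean spot intensity, rounded.

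Control and outlier-flagged spots were left out, spots of a probe were averaged, and log2 signals were centred on each array's 75th percentile. The 2 LB1 and 2 control arrays entered 1 linear model of limma (version 3.58.1, R 4.3.3) with moderated variances. The fit was also run on simulated data with independent noise. Those data had no dimmer arrays and no background floor, so they cannot show how the fit handles either. The brightest probe stands for its gene. The submitters stated Student's test with a minimum of 2-fold, which is an alternative here beside other scalings, background corrections, filters, the slide as a block and each array left out. Within-array ratios and the ranges of signal level were added after seeing the data. Members, lists, groups and the rule for named genes (every member; up to 4 genes with the smallest p of each other list) were chosen with earlier results of these data known. Genes named outside that rule are Myod1, Myog, Myf5, Acta2, Tnni3, Tnnt2, Msln, Prg4, Tpm1 and Fabp1, chosen after their values were seen.

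Same-numbered control and LB1 arrays shared a slide, per the file headers. Deviations of same-numbered arrays correlated at 0.151 over 22957 probes. The number of arrays limits the precision.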

Additional observations from a re-analysis of the deposited data

How the results depend on the processing

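Member probes called higher numbered 15 in the main setting. The count was 45 with no filter on dim probes, 4 without scaling, 8 by the methods' t-test with its 2-fold minimum and 0 after Benjamini-Hochberg adjustment of that test, and 0 to 15 when each array was left out in turn. Of all probes, 17556 were called higher with no filter and 2228 by the methods' t-test with its 2-fold minimum. Member probes called lower were 0, against 2 with the array median, 7 without scaling and 1 with quantile normalization. Over all probes 7437 were called, against 20683 with no filter, 15307 without scaling, 15990 with normexp, 14447 with the series table, 4109 by the methods' t-test and 0 after its adjustment, and 1 to 11028 with each array left out; without a control array the lone control is assumed to vary like the LB1 arrays. With the replicate block, which is also the slide, 16 member probes were higher and 0 lower: Tnnc1 was lost, and Ttn and the second Neb probe were gained. Called values, or values called without scaling, that changed sign there were Myh1 -0.55, Myl4 -1.57, Mylpf -1.61, Smyd1 -1.87, Tnnc1 -1.05, Tpm2 -0.53 and -0.74 and Trim54 -0.10; Actc1 (-1.08), Tnnt1 (-1.27), Ttn (-0.97) and the second Neb probe (-0.17) changed sign without being called in either. With normexp the second Myl4 probe turned to 0.53 and Atp2a1 to 0.88, and with the series table Atp2a1 was 0.54. The cause was not tested. With trend and robust settings 24 of the 26 tested member probes stayed on their side of the threshold, and with the filter on all 4 arrays 17 of 18. Signals near background bound what the dim members can show.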
